A study of Mus musculus with 16 samples.

Results

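Mitochondrial ribosomal protein genes were followed across poly(A) RNA-seq libraries of the mouse dorsal raphe nuclei (DRN), the midbrain group that holds most forebrain-projecting serotonin neurons. They were taken by symbol, as Mrpl or Mrps followed by a digit, and 77 of the 14504 genes in the table met this rule. Of these, 48 carried Mrpl symbols and 29 Mrps symbols, and all 77 were annotated as protein coding. The symbol misplaces a few of them. Mrps30 and Mrps18a encode proteins of the large subunit, and Mrps36 is also known as a component of the 2-oxoglutarate dehydrogenase complex. The 77 members therefore comprised 50 large-subunit genes, 26 small-subunit genes and Mrps36.

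The mitochondrial ribosome translates the few respiratory chain proteins that the mitochondrial genome encodes. Its rRNAs are transcribed inside the organelle, whereas all of its proteins are made from nuclear genes in the cytosol and imported. Some proteins have bacterial counterparts and others were added during mitochondrial evolution. Output of functional respiratory chain complexes depends on both genomes, and neurons rely heavily on the energy these complexes supply.

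The 16 libraries came from adult male C57BL/6 mice, all of the C57BL6 genotype. Stressed mice had 30 days of chronic social defeat and were divided by behavior into a passive coping strategy group (PS, dep1 in the labels) and an active coping strategy group (AS, dep2). Controls were not defeated. Each mouse received saline or dexamethasone (DEX, a synthetic glucocorticoid, 2 mg/kg) and was sampled 6 h later. Saline groups held 3 control, 2 PS and 3 AS libraries, and DEX groups held 3 control, 3 PS and 2 AS libraries. A library is named below by group and animal number, for example AS_sal_40. The tissue was punched from frozen sections and sequenced in bulk, so fewer cells of a type and less RNA per cell cannot be told apart. Coping groups were defined by clustering behavior, and DEX libraries of stressed mice with low Tph2 had been set aside by the study. The study describes more DRN libraries after that step than the 16 used here, so the step alone does not account for the group sizes.

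Reads counted in the 14504 genes of the table ran from 38207157 to 62447298 per library, which is not the full sequencing depth. All 8 serotonin neuron markers were present in every library, and Tph2, the serotonin-synthesizing enzyme, lay between 91764 and 182191 normalized counts. The 6 glucocorticoid target genes that checked the DEX label, Fkbp5 and Sgk1 among them, summed to between 9960 and 12179 normalized counts in saline libraries and to between 25557 and 31147 in DEX libraries.

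Promoters of the members are shown because the members varied together, as described below. RefSeq promoter windows (GRCm38.p6, 250 bases before to 50 bases after the transcript start) were matched by symbol for 68 members, giving 74 windows. Both strands were searched for letters bound by factors known at nuclear genes for mitochondrial proteins: GCGCATGCG for NRF1, CCGGAAG for ETS factors including GABP, and AANATGGCG for YY1. The ETS/GABP letters stood in 33.8% of member windows, in 16.2% of 13273 windows of genes in the table and in 8.86% of all 32851 windows. The NRF1 letters stood in 9.46% of member windows, against 3.37% and 1.75%. The YY1 letters stood in 14.9%, against 4.69% and 2.38%. At least one of these motifs was present in windows of 36 members, and in 48.6% of member windows. This share was 22.3% in windows of genes in the table and 12.1% in all windows. It was 42.9% for nuclear respiratory chain genes and 54.3% for cytosolic ribosomal protein genes. The shares for ETS/GABP were 24.3% in 70 windows of the nuclear respiratory chain genes and 37.1% in 70 windows of cytosolic ribosomal protein genes. SP letters (GGGCGG) were in 52.7% of member windows, in 61.7% of windows of genes in the table and in 35.7% of all windows. In the same order, the E-box CACGTG was in 9.46%, 9.66% and 7.15%. The glucocorticoid response element half-site TGTTCT was in 12.2%, 12.2% and 19.0%. Matches of different motifs may share bases, and such overlaps were kept.

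The 250 bases before the start are printed on the strand of the gene for 5 members, with NRF1, ETS/GABP and YY1 letters in capitals. Mrpl17 (chr7:105811088-105811337, minus strand), Mrps18a (chr17:46110754-46111003, plus strand) and Mrpl36 (chr13:73330759-73331008, plus strand) were, among members with the NRF1, ETS/GABP or YY1 letters before the start, those that tracked the other members most closely. Mrpl30 (chr1:37890227-37890476, plus strand) and Mrps5 (chr2:127587176-127587425, plus strand) tracked the other members most and least closely of all members with a window.
Mrpl17: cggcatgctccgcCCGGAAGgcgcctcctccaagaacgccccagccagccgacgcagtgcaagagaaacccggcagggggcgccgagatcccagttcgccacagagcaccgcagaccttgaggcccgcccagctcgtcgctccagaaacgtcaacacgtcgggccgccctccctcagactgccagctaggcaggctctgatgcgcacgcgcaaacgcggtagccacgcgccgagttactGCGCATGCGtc
Mrps18a: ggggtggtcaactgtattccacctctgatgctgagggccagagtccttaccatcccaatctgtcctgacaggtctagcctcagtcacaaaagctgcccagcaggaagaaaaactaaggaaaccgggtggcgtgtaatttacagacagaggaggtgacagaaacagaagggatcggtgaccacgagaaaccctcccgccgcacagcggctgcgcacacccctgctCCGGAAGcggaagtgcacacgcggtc
Mrpl36: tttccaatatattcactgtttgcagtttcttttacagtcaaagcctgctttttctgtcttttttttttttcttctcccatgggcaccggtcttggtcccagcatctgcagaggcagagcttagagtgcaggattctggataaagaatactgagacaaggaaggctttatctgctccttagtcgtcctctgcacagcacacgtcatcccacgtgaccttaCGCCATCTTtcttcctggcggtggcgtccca
Mrpl30: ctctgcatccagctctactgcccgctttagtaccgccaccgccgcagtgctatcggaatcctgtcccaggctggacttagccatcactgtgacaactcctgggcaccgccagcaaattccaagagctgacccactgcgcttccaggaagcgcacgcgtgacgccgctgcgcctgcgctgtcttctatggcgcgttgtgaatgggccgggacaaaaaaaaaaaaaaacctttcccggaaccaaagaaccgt
Mrps5: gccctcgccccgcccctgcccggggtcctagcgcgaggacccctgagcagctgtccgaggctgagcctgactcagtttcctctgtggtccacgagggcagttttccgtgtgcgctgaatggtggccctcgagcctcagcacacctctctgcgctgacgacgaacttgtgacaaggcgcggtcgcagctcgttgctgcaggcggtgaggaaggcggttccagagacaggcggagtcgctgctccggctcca
The NRF1 letters of Mrpl17 began 11 bases before the start, and its ETS/GABP letters 237 bases before it. The ETS/GABP letters of Mrps18a began 26 bases before the start and the YY1 letters of Mrpl36 began 31 bases before it. Neither Mrpl30 nor Mrps5 held any of the 3 motifs in the stretch shown. Median correlation with the other members was 0.88 for the 36 members with at least one motif and 0.87 for the 32 without.

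Every member was well covered, with at least 182 reads in each library. Mean normalized counts had a median of 1325 over the members and 1180 over all genes. Member transcripts were short, with a median length of 1226 bases against 2496 bases over all genes. Levels per kilobase of transcript spanned a 20.8-fold range. The highest belonged to 3 large-subunit genes, Mrpl20 with 3736, Mrpl30 with 2799 and Mrpl41 with 2754 normalized counts per kilobase. The lowest were Mrps35 with 179.9, Mrpl47 with 223 and Mrpl1 with 247, the last encoding the protein of the L1 stalk. Median levels per kilobase were 1053 for the 30 large-subunit genes with bacterial counterparts, 1093 for the 20 mitochondria-specific large-subunit genes, 882 for the 16 small-subunit genes with bacterial counterparts and 705 for the 10 mitochondria-specific small-subunit genes.

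The members varied together across libraries. A score was taken for each library as the mean, over the members, of the log2(normalized count + 1) deviation from that member's mean over 16 libraries. AS_sal_40 had a score of 0.54, and 76 of 77 members were above their own mean there. Next came con_sal_104 with 0.23, con_sal_114 with 0.21 and con_dex_116 with 0.16. The other 12 libraries lay between -0.17 and 0.00. On the linear scale, members together took 0.320% of the counted reads of AS_sal_40 and between 0.199% and 0.268% of those of the other 15 libraries.

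**Figure D1:**
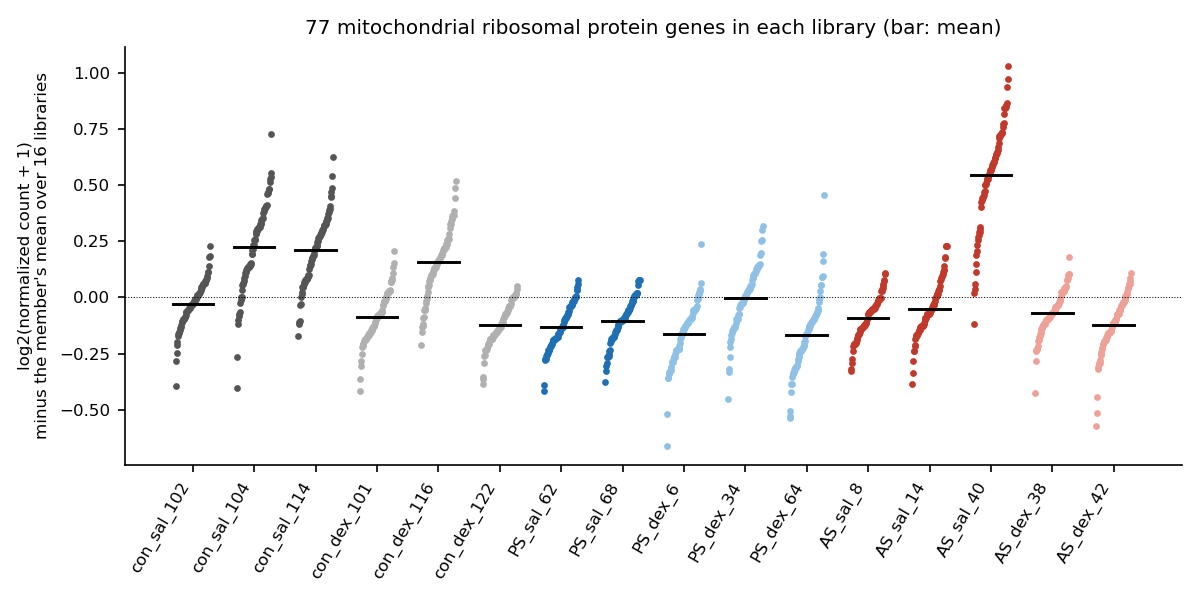
Each point is 1 of 77 members in 1 of 16 libraries, plotted as its log2(normalized count + 1) minus its own mean over libraries; colors mark the 6 groups and the black bar is the mean of the 77 members. The bar of AS_sal_40 is at 0.54, those of con_sal_104, con_sal_114 and con_dex_116 lie between 0.16 and 0.23, and the other 12 lie between -0.17 and 0.00.

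The 3 AS saline libraries were not alike. Their mean score was 0.13 ± 0.36 (SD, n = 3), with AS_sal_8 at -0.09 and AS_sal_14 at -0.05. Control saline libraries had a mean score of 0.14 ± 0.14 (SD, n = 3), and control DEX libraries of -0.02 ± 0.15 (SD, n = 3). PS libraries had mean scores of -0.12 ± 0.02 after saline (SD, n = 2) and -0.11 ± 0.09 after DEX (SD, n = 3). AS DEX libraries had -0.09 ± 0.04 (SD, n = 2).

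AS_sal_40 was the highest of all libraries for 63 of 77 members (81.8%), whereas 20.4% of all genes were highest there. The ratio of its normalized count to the median of the other 15 libraries had a median of 1.54 over the members, and 67 members exceeded a ratio of 1.2. Over all genes the median ratio was 0.997, and 28.7% exceeded 1.2. The highest ratios were those of Mrpl54, a large-subunit protein, with 1494 normalized counts against a median of 678, and Mrps21, the counterpart of bacterial S21, with 2067 against 941. The lowest ratio was 0.911, for Mrps5. In con_sal_104 11 members reached their highest level, among them Mrpl2, Mrpl38 and Mrps15, and in con_sal_114 3 did, Mrpl3, Mrpl33 and Mrpl35.

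Both subunits shared this pattern. The mean deviation of the 50 large-subunit genes minus that of the 26 small-subunit genes stayed between -0.08 and 0.07 in every library. For each member, Pearson's r with the mean of the other 76 was taken over the 16 libraries, which the points share with their depth and scaling, so it is a description only. The median r was 0.88 (Spearman 0.69), and 50 members (64.9%) exceeded 0.8. Of the genes that were not members, 9.41% exceeded 0.8 with the mean of the members. Without the 2 libraries farthest from the median, AS_sal_40 and con_sal_104, the median r was 0.73. After removal of group means it was 0.88.

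Mrpl30 (chr1:37890477-37898535, GRCm38, plus strand), a large-subunit gene, had the closest relation with r = 0.97. Its normalized counts were 1915, 2163 and 2231 in control saline, 1603, 2274 and 1732 in control DEX, 1561 and 1699 in PS saline and 1538, 1693 and 1462 in PS DEX libraries. In AS they were 1649, 1612 and 3251 after saline and 1633 and 1626 after DEX. AS_sal_40 was thus the highest library, far above the other 2 of its group, while the PS and AS DEX values lay close together. Mrpl12, which forms the flexible stalk that binds translation factors, followed with r = 0.96. It had 1884, 2020 and 3800 normalized counts in AS saline, and its 13 values in the other 5 groups lay between 1692 and 2885.

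The least variable member did not follow the others. Mrps5 (chr2:127587222-127606829, plus strand), a small-subunit protein at the decoding site, had the smallest SD over libraries, 0.09 on the log2 scale, and r = -0.24. It had 3122, 3318 and 3170 normalized counts in control saline, 3136, 2588 and 2989 in control DEX, 2953 and 3161 in PS saline and 2972, 2728 and 2978 in PS DEX. In AS it had 3124, 3026 and 2756 after saline and 2928 and 3025 after DEX. The lowest values were those of con_dex_116, PS_dex_34 and AS_sal_40, and the first and the last of these were among the 4 libraries with the highest member scores. Mrpl37, with an SD of 0.10 and r = 0.53, and Mrps15, with an SD of 0.11 and r = 0.62, were the next most stable. The 3 largest SDs were those of Mrps21 (0.39), Mrpl54 (0.36) and Mrps18c (0.35). The median SD was 0.23 over members and 0.22 over all genes. Mrpl9 (r = 0.20), Mrps2 (r = 0.21), Mrpl33 (r = 0.31) and Mrpl10 (r = 0.34) also followed the others poorly. These 4 were named after their values were seen.

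**Figure D2:**
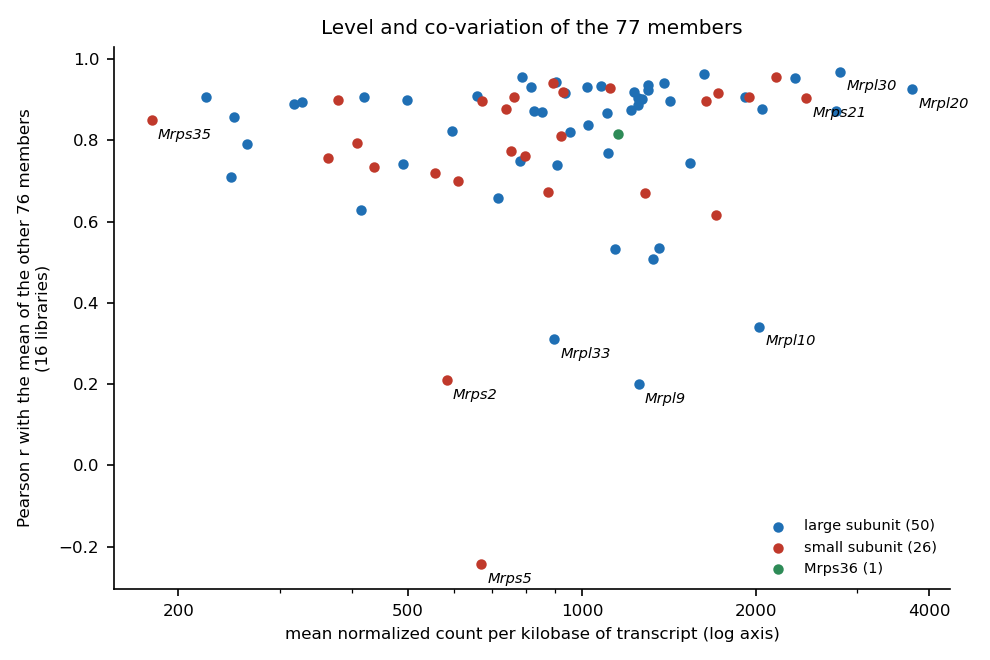
Each point is 1 member, with its mean normalized count per kilobase of transcript on a logarithmic x axis and its Pearson r with the mean of the other 76 members over 16 libraries on the y axis. Of the 77 points 50 lie above 0.8, while Mrps5 (r = -0.24), Mrpl9, Mrps2, Mrpl33 and Mrpl10 lie below 0.35.

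Other gene groups fell into those that followed the members and those that did not. The 5 mitoribosomal proteins with other names (Dap3, Ptcd3, Chchd1, Aurkaip1 and Gadd45gip1) had a median r of 0.94 with the member mean, and Aurkaip1 reached 0.98. Nuclear respiratory chain genes (82 listed) had a median r of 0.92 and cytosolic ribosomal protein genes (80 listed) of 0.94. Their scores in AS_sal_40 were 0.68 and 0.83. Mitoribosome assembly factors (28 listed) had a median r of 0.46 and mitochondrial translation factors (19 listed) of 0.34. Mitochondrial aminoacyl-tRNA synthetases (17 listed) were at -0.24, and mitochondrial transcription factors with their nuclear regulators (15 listed) were at -0.07. The values of this last list were uneven, from -0.93 for Pprc1 to 0.83 for Tefm, and 4 of the 15 genes exceeded 0.5. Ppargc1a, a coactivator of mitochondrial biogenesis genes, had r = -0.68 and Nrf1 r = -0.50. Gabpa had r = 0.07, Tfam r = 0.57 and Gabpb1 r = 0.74. Pprc1, Tefm and Gabpb1 were named after their values were seen.

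Mitochondrial transcripts as a list did not track the members (31 listed, median r = -0.04), and their score was -0.13 in AS_sal_40. The correlations within this list were uneven, and the genes named from it here were chosen after their values were seen. The rRNAs of the mitochondrial ribosome had the highest values of the list. The large rRNA mt-Rnr2 had r = 0.88 with the member mean, and 0.75 without AS_sal_40 and con_sal_104. Its normalized count was 310130 in AS_sal_40 and lay between 88109 and 169846 in the other 15 libraries. The small rRNA mt-Rnr1 had r = 0.82, with 156321 in AS_sal_40 and between 44031 and 81091 elsewhere. The tRNA genes mt-Ta (r = 0.75) and mt-Tp (r = 0.59) came next. Among protein-coding transcripts mt-Nd3 had r = 0.29 and mt-Co1 r = 0.08. The lowest value of the list was that of mt-Nd5, which encodes a complex I subunit, with r = -0.65 and with 59850 in AS_sal_40, 25575 in con_sal_114 and 85925 in con_dex_116 against at least 126896 in the other 13 libraries. Libraries were enriched for poly(A) RNA, and rRNA counts also depend on how that step captured these RNAs.

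**Figure D3:**
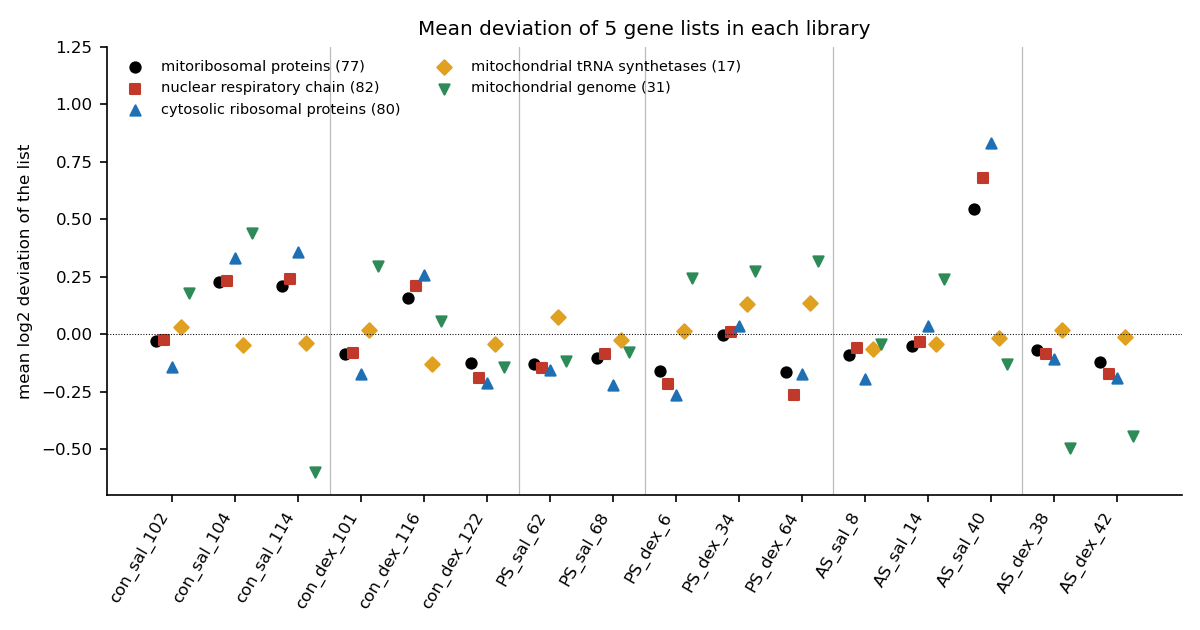
The y axis is the mean log2 deviation of 5 gene lists in each of 16 libraries, with grey lines between groups and the number of genes in parentheses. In AS_sal_40 the mitoribosomal (0.54), nuclear respiratory chain (0.68) and cytosolic ribosomal (0.83) lists are far above 0, while the mitochondrial tRNA synthetases and the mitochondrial genome (-0.13) are not.

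Transcript length moved with the libraries of highest member score, and microglia markers were highest in AS_sal_40. All genes were divided into quartiles of transcript length, and 44 of 77 members were in the shortest. In AS_sal_40 the median deviation of all genes was 0.27 in the shortest and -0.23 in the longest quartile, while the members had 0.62 in the shortest and 0.35 in the longest, which held 6 members. Members of each length quartile stood above other genes of like length in that library. In the shortest and longest quartiles, all genes had medians of 0.13 and -0.23 in con_sal_104 and 0.14 and -0.10 in con_sal_114. They were 0.06 and -0.04 in con_dex_116. The 7 microglia markers summed to between 4988 and 6842 normalized counts in AS saline, between 4842 and 5262 in the other saline groups and between 4200 and 4890 in DEX groups, and none was at 0. The highest sum and the highest microglia score, 0.56, belonged to AS_sal_40. Control DEX libraries, con_dex_116 among them, had sums between 4204 and 4415. The 6 astrocyte markers summed to between 30079 and 39287 in AS saline and to between 26549 and 35910 in the other groups. The 7 ependyma markers summed to between 3460 and 9630 in AS saline and to between 1021 and 15135 in PS DEX. The part of length and of glial content in the scores was not tested beyond the length correction given below.

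DEX was tested within each stress group by limma on log2(normalized count + 1), with Benjamini-Hochberg adjustment over all 14504 genes and a threshold of 0.1 for the adjusted p. No member passed it in controls, where 1.26% of all genes did. None passed it in the PS mice (0.703%), in the AS mice (0.689%) or in the average of the 3 groups (4.31%). edgeR called no member in any of these comparisons either, and DESeq2 called 1 in the average, where it called 6.23% of all genes. The shares of all genes that edgeR called are not given, so its zeros have no background beside them. At an unadjusted p under 0.05, 2 members differed in controls (12.1% of all genes did), none in PS (4.69%), 5 in AS (9.36%) and 5 in the averaged effect (14%). All of these members were lower after DEX. Of all genes 4.78% were lower at this p in controls, and the shares were 1.68% for PS, 4.16% for AS and 6.25% for the averaged effect.

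Small differences below 0 were nonetheless widespread in controls and in AS, but not in PS. In controls, 69 of 77 members had a log2 change below 0 after DEX (49.3% of all genes did), with a median of -0.15 over members and 0.00 over all genes. In PS 34 members were below 0 (51.1%), and the median was 0.01. In AS 72 members were below 0 (50.9%), with a median of -0.22. In the average, 74 members were below 0 (50.6%) with a median of -0.12. Every DEX library was below every saline library for 8 members (10.4%) in controls, against 7.43% of all genes. This held for 7 members (9.09%) in PS, against 10.1%, and for 12 (15.6%) in AS, against 14.8%. These shares were near those of all genes. Members vary together, so these counts are not counts of independent genes.

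The medians rested on few libraries. Without AS_sal_40 the median in AS was -0.02, with 43 members below 0, and the median of the average was -0.05, with 63 members below 0. Without AS_sal_14 the median in AS was -0.34. In controls the median was -0.24 without con_sal_102 and -0.25 without con_dex_116. It was -0.11 without con_dex_122, -0.12 without con_sal_104 or con_sal_114, and -0.13 without con_dex_101. In PS it ranged from -0.04 to 0.05 as libraries were left out, and it was below 0 with quantile normalization (-0.01) and with the length trend removed (-0.005). With the length trend removed, it was -0.08 in controls, -0.14 in AS and -0.08 in the average.

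**Figure D4:**
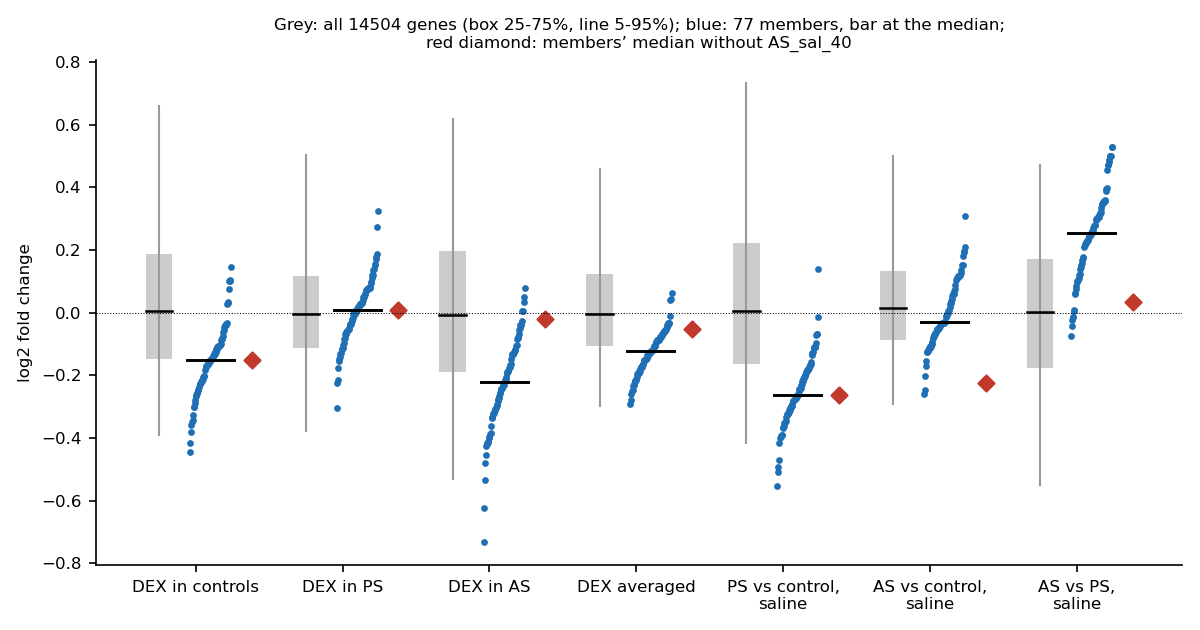
For 7 comparisons, the y axis gives log2 fold changes of all 14504 genes (grey, median, quartiles and 5th to 95th percentiles), of the 77 members (blue points, black bar at the median) and the members' median without AS_sal_40 (red diamond). The members' medians after DEX are -0.15 in controls, 0.01 in PS and -0.22 in AS, and the last of these is -0.02 without AS_sal_40.

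The smallest p in the DEX average belonged to Mrpl18 (chr17:12911349-12916345, minus strand), a protein of the central protuberance, where the large subunit meets the head of the small one. Its normalized counts were 1367, 1621 and 1512 after saline and 1358, 1356 and 1197 after DEX in controls, 1363 and 1245 against 1156, 1352 and 1053 in PS, and 1385, 1362 and 1884 against 1138 and 1174 in AS. The ranges of the treatments did not overlap in controls or in AS, and they overlapped in PS. The averaged log2 change was -0.25 (SE 0.08, limma adjusted p 0.171), and its adjusted p ran from 0.0985 with DESeq2 to 0.392 over all alternatives. In AS alone it was -0.40 (SE 0.15, adjusted p 0.431). Mrpl18 shares exonic bases with Tcp1 on the opposite strand, and whether counting used strand was not stated.

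In the average, Mrps16 followed with -0.29 (SE 0.12, limma adjusted p 0.301), then Mrpl38, another protein of the central protuberance, with -0.17 (SE 0.08, adjusted p 0.333) and Mrps36 with -0.23 (SE 0.11, adjusted p 0.351). Mrps12, at the decoding center, was the fifth with -0.25. In AS, Mrps21 (chr3:95862634-95871519, minus strand) had the largest difference, -0.73 (SE 0.29, adjusted p 0.48). It had 913, 1146 and 2067 normalized counts after saline and 783 and 773 after DEX, so the treatments did not overlap, and AS_sal_40 lay far above the other saline libraries. By p, Mrpl18 was followed in AS by Mrps21, Mrps18c (-0.62) and Mrps23 (-0.43), all 3 of the small subunit. With library quality weights, Mrps21 (adjusted p 0.0564) and Mrps18c (adjusted p 0.0903) passed the threshold in AS, as did 9.67% of all genes, and Mrps36 (adjusted p 0.0989) in the average, as did 9.16% of all genes. Under these weights the median over members was -0.04 in AS and -0.04 in the average. Without AS_sal_40 no member of the AS comparison had an unadjusted p under 0.05. Mrps36 has 3 annotated processed pseudogenes that could share its reads.

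In controls, Mrpl2, a protein near the peptidyl transferase center, was lowest in p with a log2 change of -0.42 (SE 0.15, limma adjusted p 0.303). It had 1394, 2161 and 1449 normalized counts after saline and 1291, 1193 and 1191 after DEX. Every DEX value was below every saline value, and con_sal_104 was far above the other saline values. Mrpl38 had -0.30 (SE 0.12, adjusted p 0.353), with 2254, 2838 and 2485 after saline and 2031, 2122 and 1969 after DEX. Mrpl4 and Mrps26 were next, with -0.26 and -0.25. In PS the smallest p belonged to Mrpl38 (-0.18), Mrps28 (-0.30), Mrps18c (0.32) and Mrpl50 (0.18), each with an adjusted p above 0.99.

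**Figure D5:**
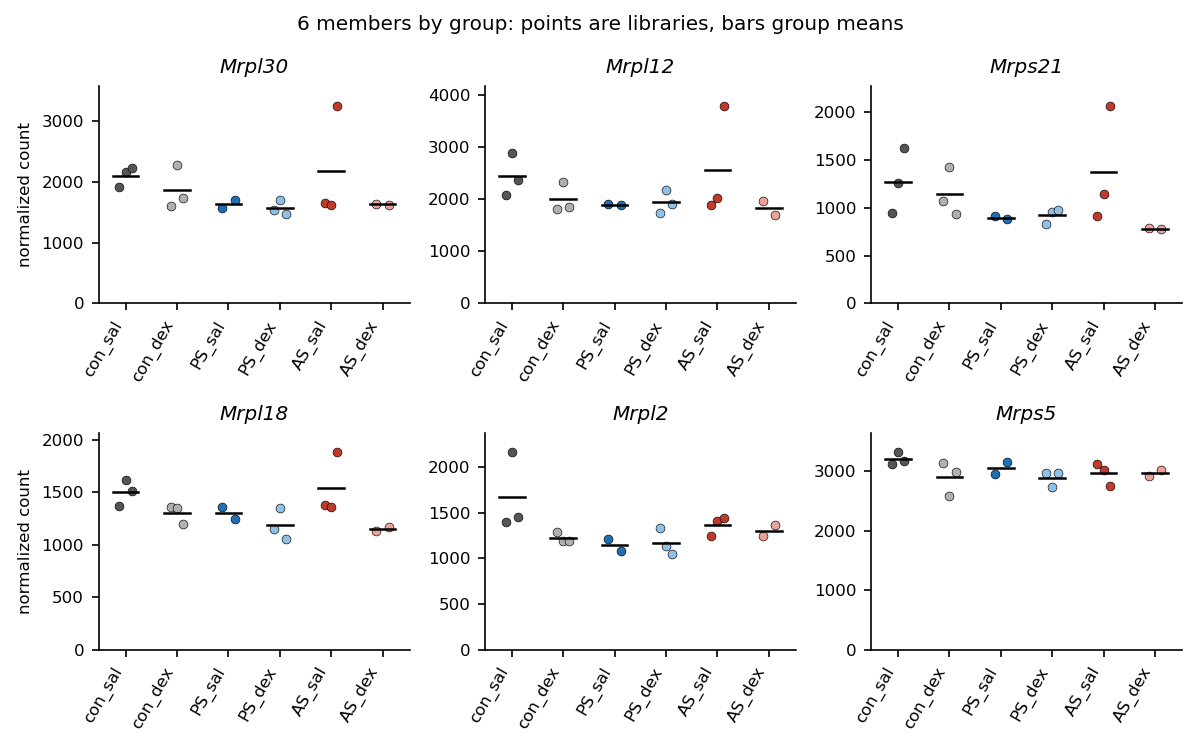
Normalized counts of 6 members in the 6 groups, with a point per library, a bar at each group mean and every y axis starting at 0. AS_sal_40 is the single high point of the AS saline group for Mrpl30 (3251), Mrpl12 (3800), Mrps21 (2067) and Mrpl18 (1884), con_sal_104 is that of the control saline group for Mrpl2 (2161), and Mrps5 differs little between groups.

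Structural parts of the ribosome did not separate after DEX. In the average, the median log2 change was -0.12 in the 30 large-subunit genes with bacterial counterparts, -0.13 in the 20 mitochondria-specific large-subunit genes, -0.14 in the 16 small-subunit genes with bacterial counterparts and -0.11 in the 10 mitochondria-specific small-subunit genes. It was -0.13 for the 4 listed stalk genes, -0.13 for the 7 genes of the polypeptide exit tunnel and -0.15 for the 6 of the central protuberance. Mrpl44, Mrpl58, Mrps7, Mrps30, Mrps18a and Mrpl3 were not called in any comparison. Mrpl58 encodes a peptidyl-tRNA hydrolase built into the large subunit, and Mrpl3 a core protein of that subunit.

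Related genes gave no calls after DEX either. In the average, all 82 nuclear respiratory chain genes had changes below 0 with a median of -0.18, and all 80 cytosolic ribosomal protein genes did, with a median of -0.18. The 5 mitoribosomal proteins with other names had a median of -0.16. Assembly factors were at -0.03, translation factors at -0.01, tRNA synthetases at 0.04, transcription factors and regulators at 0.04 and the mitochondrial genome at -0.04. None of these genes passed the threshold in a DEX or saline comparison. Of the microglia markers 3 of 7 fell in the DEX average by limma, Cx3cr1 by 0.83 (adjusted p 9.72e-05), P2ry12 by 0.59 (adjusted p 0.0219) and Aif1 by 0.92 (adjusted p 0.0404). Of the oligodendrocyte markers 2 of 8 fell, Cnp by 0.37 (adjusted p 0.0141) and Mog by 0.43 (adjusted p 0.082), and 7 of 8 had a change below 0. Htr1a, 1 of 8 serotonin neuron markers, fell by 0.25 (adjusted p 0.0677), and Tek, 1 of 6 endothelial markers, by 0.46 (adjusted p 0.0848). The bearing of these markers on the members was not tested.

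Stress was compared under saline. No gene passed the threshold when PS was compared with controls (0% of all genes), AS with controls (0%) or AS with PS (0%), by limma. At an unadjusted p under 0.05, 2 members differed between PS and controls (7.67% of all genes did), none between AS and controls (2.39%) and 2 between AS and PS (3.41%). The first 2 were lower in PS than in controls, as were 3.01% of all genes, and the last 2 higher in AS than in PS, as were 1.77%. edgeR and DESeq2 called no member here, but the shares of all genes they called are not given, so these zeros have no background beside them.

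In PS saline, 76 of 77 members were below controls (49% of all genes were), with a median log2 difference of -0.26 against 0.01 over all genes. For 48 members (62.3%) both PS libraries were below all 3 control libraries, which held for 14.2% of all genes. The median stayed between -0.34 and -0.21 as each library was left out, and it was -0.15 with the length trend removed. Of the 3 control libraries, con_sal_104 and con_sal_114 were among the 4 with the highest member scores, and con_sal_102 scored -0.03, still above PS_sal_62 at -0.13 and PS_sal_68 at -0.10. The shift was not particular to the members. Of the nuclear respiratory chain genes 79 of 82 were below controls, with a median of -0.27, and of the cytosolic ribosomal protein genes 79 of 80, with -0.39. Only 2 PS libraries entered this comparison.

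Mrpl2 (chr17:46646229-46650139, plus strand) had the smallest p here, with 1217 and 1086 normalized counts in PS saline and 1394, 2161 and 1449 in control saline. Its log2 difference was -0.51 (SE 0.17, limma adjusted p 0.571). Mrpl44, a large-subunit protein with a ribonuclease III fold, had 1011 and 973 against 1143, 1458 and 1395, a difference of -0.42 (SE 0.18, adjusted p 0.571). Mrpl52 (-0.55) and Mrpl14 (-0.49) were next. The groups did not overlap for any of these 4 genes. Mrpl44 shares exonic bases with Wdfy1, and Mrpl14 with Tmem63b, on the opposite strand.

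Between AS and controls under saline, 45 members were below 0 (46.1% of all genes were) with a median of -0.03, which was 0.01 with DESeq2 and 0.03 with edgeR. It lay between -0.22, without AS_sal_40, and 0.10, without AS_sal_8. Without AS_sal_40, 75 members were below controls. The smallest p values belonged to Mrpl2 (-0.26), Mrpl38 (-0.20), Mrpl32 (0.31) and Mrps5 (-0.11), and the groups overlapped for all 4.

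Between AS and PS under saline, 5 members were below 0 (49.6% of all genes were), and the median was 0.25. For 18 members all AS libraries were above both PS libraries, which held for 11% of all genes. The median was 0.03 without AS_sal_40, with 23 members below 0, and 0.38 without AS_sal_8. It was 0.15 with the length trend removed, with 11 members below 0, and 0.06 with library weights, with 24 below 0. With all libraries, the median was 0.31 for the nuclear respiratory chain genes and 0.43 for the cytosolic ribosomal protein genes. Mrps36 had 698, 845 and 1178 normalized counts in AS and 618 and 660 in PS, a difference of 0.47 (SE 0.19, limma adjusted p 0.728). Mrpl42 (0.49), Mrpl32 (0.53), whose protein is matured by a mitochondrial protease, and Mrpl46 (0.39), of the central protuberance, followed. Exons of Mrpl46 overlap those of Mrps11, another member, on the opposite strand.

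Under DEX, PS was closer to controls and, with all libraries, to AS than under saline, where these medians were -0.26 and 0.25. With all libraries AS was not closer to controls, with a median of -0.03 under saline. Both statements on AS rested on AS_sal_40. Without it the saline medians were 0.03 for AS against PS and -0.22 for AS against controls. The median log2 difference over members was -0.08 for PS against controls, -0.07 for AS against controls and 0.02 for AS against PS, and no member was called (0%, 0.00689% and 0% of all genes were). No member was called in a test of whether the DEX effect differed between stress groups, in which 0% of all genes passed for each pair of groups. Mrps18c was the 1 member with an unadjusted p under 0.05 in the comparison of AS with PS (2.9% of all genes). These comparisons share control, PS or AS libraries and are not independent of each other.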

How the data were processed

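Poly(A) RNA-seq of dorsal raphe nuclei was taken as a deposited table of normalized counts for 16 libraries (signal per gene, the authors' counts divided by DESeq2 size factors). Per the labels, the authors trimmed reads with fastp 0.20.1, aligned them to mm10/GRCm38 with HISAT2 2.2.1, counted them with featureCounts (Subread 2.0) and normalized with DESeq2 1.36.0; strandedness of counting is not given in the sources used here. Whole reads were recovered from the steps of the values (100% within 0.02 of a whole number in every library), so the reads counted in the listed genes were known. The labels and the study's methods differ on the RNA extraction and sequencer used for these libraries. Deposited tables of the authors' own comparisons (log2 fold changes, p-values and adjusted p) were not used.

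The main test was limma 3.58.1 on log2(normalized count + 1), with 6 group means over all 16 libraries, a mean-variance trend (10 residual degrees of freedom) and Benjamini-Hochberg adjustment over 14504 genes; the threshold for a call was 0.1. Beside it stood edgeR 4.0.16 and DESeq2 1.42.0 on the recovered reads, other pseudocounts and scalings, library weights, a length correction, a filter on genes with a mean under 100, fits to the compared groups only, and each library left out in turn. Scripts were tested on simulated data. Labels name 1 library per animal number, so p-values measure the spread between these libraries. Members and lists were chosen with earlier results of these data known. Genes named were the 4 members with the smallest p in each of the 4 DEX and 3 saline comparisons, the 3 highest and 3 lowest levels per kilobase, the 3 largest and 3 smallest SDs, and genes listed for their role; others are said to be chosen after their values were seen. Transcript lengths and coordinates came from GENCODE vM21 (GRCm38) and promoters from RefSeq (GRCm38.p6). Counts per kilobase used the annotated transcript length. By that annotation, 32 members share exonic bases with another gene, 27 of them on the opposite strand. Mrpl53 was not analysed here. Python 3.11.15 and R 4.3.3 were used.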

Additional observations from a re-analysis of the deposited data

How the results depend on the processing

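Of 596 repeats of the counts of called members and of their medians, 591 stayed within the limits set for a change. These were 1.5 times for counts and, for medians, 0.198, the SD of the members' median between replicates. Leaving out a library of a group not compared cannot move a median, so part of these repeats could not differ. The limit also exceeded medians such as -0.15 for DEX in controls and -0.12 for the DEX average. Loss of such a difference would still be within it, so the share says little about how stable the medians were. The count of called members in the DEX average was 1 with DESeq2 (Mrpl18; 6.23% of all genes were called) and 1 with library weights (Mrps36; 9.16%), and in AS after DEX it was 2 with library weights (9.67%), against 0. The medians for DEX in PS and for AS against controls under saline, both near 0, changed sign between alternatives (-0.04 to 0.08 and -0.22 to 0.10). Leaving out each library in turn gave medians between -0.34 and -0.02 for DEX in AS and between 0.03 and 0.38 for AS against PS under saline, against -0.22 and 0.25 with all libraries; the values closest to 0, -0.021 and 0.0331, were those without AS_sal_40. With each library left out, the count of members with an unadjusted p under 0.05 ranged from 0 to 12 for DEX in controls, from 0 to 20 for PS against controls and from 0 to 12 for AS against controls (the highest of each without AS_sal_40), from 0 to 20 for DEX in AS, from 0 to 21 for AS against PS and from 1 to 11 for the DEX average (the highest of each without AS_sal_8). Shares of all genes at this p were not taken in these fits, so these counts have no background beside them. For DEX in controls and PS against controls, the medians without AS_sal_40 were -0.15 and -0.26, as with all libraries. AS_sal_40 is in neither comparison. The fit shares its estimate of the spread over all libraries, so p can move in comparisons that a left-out library does not enter. Beyond this, the cause was not tested. The fit restricted to the groups compared could not be made for the DEX average. No paired analysis was possible because the groups share no animal numbers. Depth did not limit members, which had at least 182 reads.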
